A study of Homo sapiens with 6 samples.

Results

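The 45 genes described here encode the machinery of the G2/M transition and of mitosis. They were taken by gene name, so that no measured value enters the rule, but the list was chosen with earlier results of these data known. All 45 were found among the 32679 genes of the deposited table. The data come from HEY cells, an ovarian cancer cell line, in which the splicing factor PQBP1 was knocked down. Short-read RNA-seq of poly(A) RNA was made from 3 samples with a control hairpin (shNC, no treatment by the labels) and 3 samples with a hairpin against PQBP1 (shPQBP1, doxycycline at 1 µg per ml), all labelled day 3. The hairpin and the doxycycline therefore differ together between the groups, and their effects cannot be told apart. The study's methods describe puromycin-selected stable lines made by lentiviral infection, and whether they are clonal is not given in the sources used here. The design text calls the 3 samples of a group biological triplicates.

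Cells pass from G2 into mitosis when CDK1, bound to cyclin A or cyclin B, is activated by CDC25 phosphatases and supported by the Polo-like kinase PLK1 and the Aurora kinases. Condensins and topoisomerase II then compact the chromosomes, kinetochores attach them to the spindle, and the spindle assembly checkpoint holds back the anaphase-promoting complex until every chromosome is attached. CDC20 and the ubiquitin-conjugating enzyme UBE2C then drive the destruction of securin (PTTG1) and the cyclins, separase (ESPL1) cuts cohesin, and cytokinesis proteins divide the cell. Transcripts of most of these genes rise in G2 under the MuvB complex, B-MYB and FOXM1, and their amount in a culture is widely read as a mark of dividing cells. In a bulk sample, fewer cells in G2 or mitosis and less RNA per such cell cannot be told apart.

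PQBP1 (ENSG00000102103, chromosome X of hg38 from 48890197 to 48903402) was present at 7.18, 6.67 and 6.93 FPKM in shNC and at 1.68, 1.72 and 1.44 in shPQBP1, where FPKM is fragments scaled to transcript length and to the mapped fragments of the sample. The level in the shPQBP1 samples was 0.233 of that in the shNC samples (log2 fold change -2.04 with a standard error, SE, of 0.10, limma adjusted p = 0.00154, two-sided exact permutation p = 0.1, the smallest that 3 against 3 allow). The read depth is unknown, since FPKM carries no counts. Summed FPKM ranged from 278285.8 to 318484.3 between samples. Of the carcinoma markers, KRT8 (52.76 to 65.61 FPKM), KRT18 (76.56 to 94.56), PAX8 (12.33 to 24.08) and MSLN (11.96 to 25.56) were present, KRT19 and EPCAM lay between 0.79 and 2.10, WT1 did not exceed 0.71 and MUC16 did not exceed 0.01. The leukocyte marker PTPRC was listed at 0 in all 6 samples and CD14 did not exceed 0.15, while CD68 lay between 9.12 and 21.16. Of the endothelial markers, PECAM1 and VWF did not exceed 0.25 and CDH5 lay between 2.11 and 3.64, and the 3 neuronal markers (RBFOX3, SYP and SNAP25) did not exceed 0.56. shNC sample 1 stood apart from the other samples, with correlations of log2 values across genes that reached 0.955 at most, against 0.965 to 0.969 at most for each of the other 5, and log2 fold changes that moved by over 1.5 times without it are given with and without it.

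All 45 genes were expressed above the filter of a mean FPKM of at least 1 that left 11413 genes for testing, so no member was lost. Their mean over the 6 samples ran from 3.59 FPKM for CENPE to 176.1 for TPX2, with a median of 24.4. Together they held 0.480%, 0.613% and 0.544% of the summed FPKM in shNC and 0.632%, 0.568% and 0.630% in shPQBP1. The ranges of the groups overlapped in this share, and shNC sample 1 was the lowest of the 6. At an adjusted p under 0.05 (limma on log2(FPKM + 0.1), Benjamini-Hochberg over the 11413 genes), 1 of the 45 genes differed, INCENP, which fell. The share was 2.22% of the members against 2.91% of all genes tested, and 1.18% of all genes were lower. At unadjusted p under 0.05, 8 genes differed, 2 higher (BUB1B and HMMR) and 6 lower (CDC25C, AURKA, AURKB, INCENP, BIRC5 and UBE2C) in the shPQBP1 samples. This was 17.8% of the members, against 23.6% of all genes, with 11.9% of all genes higher and 11.7% lower. The count of 8 was 19 without shNC sample 2, 5 without shNC sample 3 and 4 without each of the shPQBP1 samples. The shares of all genes when these samples are left out are not given here, so these counts have no background to be read against. No member had a fold change over 2 with unadjusted p under 0.05, which 1.52% of all genes had. After a trend on GC content and transcript length had been taken out of each sample, 2 members passed the adjusted threshold (INCENP and AURKA, both lower, against 8.84% of all genes) and 15 the unadjusted one (27.8% of all genes), of which 3 were higher (12.4% of all genes) and 12 lower (15.4%). Without shNC sample 1, 1 member passed the adjusted threshold (4.07% of all genes) and 8 the unadjusted one (24.8%). With both changes together, a setting chosen after seeing the data, the counts were 1 (6.78%) and 13 (26.9%).

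In 17 of the 45 genes (37.8%) the values of the groups did not overlap, against 34.4% of all genes tested. The 3 shPQBP1 values all lay below the 3 shNC values in 14 of the 45 genes (31.1%), against 17.1% of all genes tested. They all lay above in 3 genes (6.67%), against 17.3% of all genes. The 14 lower genes were CCNB1, CCNB2, CDC25C, AURKA, AURKB, INCENP, BIRC5, CDC20, UBE2C, PTTG1, ESPL1, NCAPD2, NCAPH and TPX2, and the 3 higher genes were BUB1B, SPC25 and HMMR. The change of the mean ran from -2.22% (NCAPH) to -27.9% (INCENP) in the 14 genes. Without shNC sample 1, a comparison chosen after seeing the data, 15 members lay below (33.3%, against 22.2% of all genes) and 3 above (6.67%, against 22.9%).

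In part of the genes the sign of the difference depended on shNC sample 1. The log2 fold change was positive in 27 of the 45 genes (60.0%) and in 52.8% of all genes, with a median of 0.17 over the members and 0.02 over all genes tested. Without shNC sample 1 the median of the members was -0.04, and 20 of the 45 were positive (51.9% of all genes). After the GC content and length correction the median was -0.03, and 21 were positive (46.9% of all genes). Both settings kept the sign of all 18 genes that were lower and of 18 of the 27 that were higher.

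**Figure D1:**
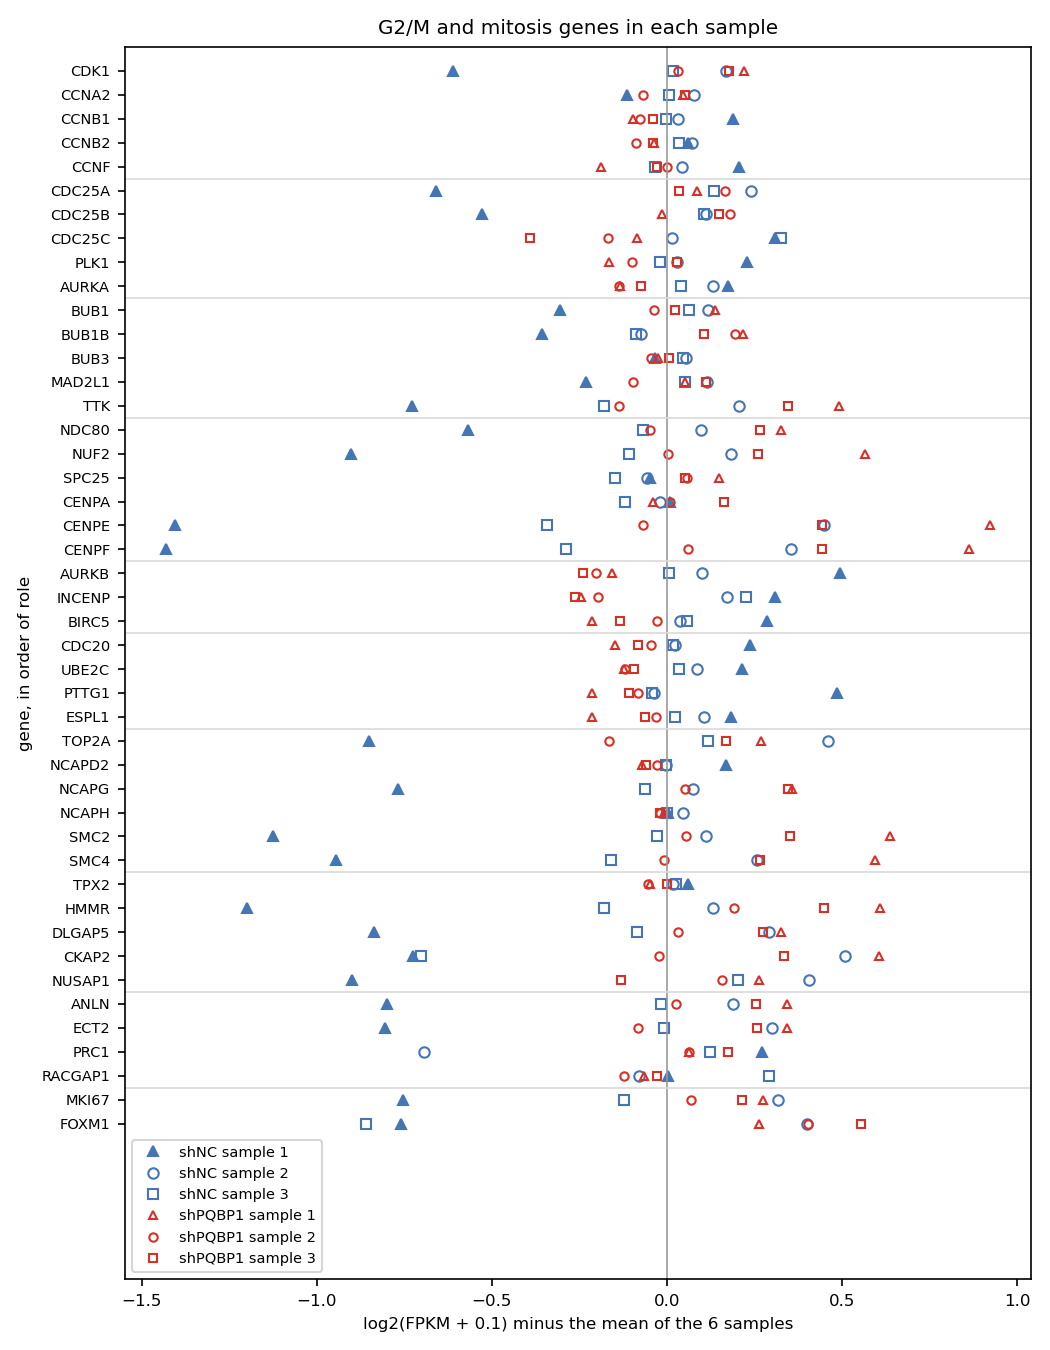
Each row is a gene, in order of role with grey lines between roles, and the horizontal axis is its log2(FPKM + 0.1) in a sample minus the mean of the 6 samples. shNC samples are blue and shPQBP1 samples red, and shNC sample 1 (filled triangle) is the lowest of the 6 samples in 23 of the 45 genes, while the chromosomal passenger genes AURKB, INCENP and BIRC5 have all red points left of all blue points.

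Promoters were searched for 2 elements known from cell cycle genes, the CHR element TTTGAA, which the MuvB complex binds, and the CCAAT box, which NF-Y binds. The windows ran from 250 bases before to 50 bases after the start of each gene in RefSeq (GRCh38.p14), both strands were searched, and matches of the elements could share a base. Of the 45 members, 37 had a window in the table used, all but AURKA, BUB3, TTK, BIRC5, UBE2C, TPX2, RACGAP1 and FOXM1. A CHR element was found in 26 of the 37 (70.3%), against 15.4% of 27305 promoters and 9.5% of the promoters of tested genes. A CCAAT box was found in 26 (70.3%), against 35.7% and 37.3%, and both elements in 19 (51.4%), against 6.08% and 4.18%. Of 33 G1/S and DNA replication genes with a window, 2 held a CHR element (6.06%) and 19 a CCAAT box (57.6%).

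The following 8 stretches with a CHR element are shown because they come from each side of the comparison: INCENP, ESPL1, CDC20 and CCNB2 had separate groups with lower values, PLK1 overlapping groups with a lower mean, BUB1B and HMMR separate groups with higher values, and MKI67 overlapping groups. Each line gives 30 bases of the gene's own strand, 5′ to 3′, with the element in capitals.
INCENP: tgagccttcagtTTTGAAaatcatagtttt
ESPL1: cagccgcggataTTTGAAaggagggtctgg
CDC20: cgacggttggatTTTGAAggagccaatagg
CCNB2: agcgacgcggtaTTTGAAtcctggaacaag
PLK1: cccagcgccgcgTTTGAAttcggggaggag
BUB1B: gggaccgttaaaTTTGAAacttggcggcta
HMMR: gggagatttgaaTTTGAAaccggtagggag
MKI67: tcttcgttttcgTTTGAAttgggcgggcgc

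The stretch of INCENP is chr11:62123989-62124018 (plus strand), with the element starting at position -10 where the first transcribed base in RefSeq is 1. That of BUB1B is chr15:40161034-40161063 (plus strand, position -23), and that of HMMR is chr5:163460598-163460627 (plus strand, position -22), where a second copy directly precedes the one in capitals. The element of MKI67 (chr10:128126435-128126464, minus strand) starts at -29, as do those of CCNB2 (chr15:59105105-59105134, plus strand) and PLK1 (chr16:23678848-23678877, plus strand). ESPL1 is at chr12:53268256-53268285 (plus strand, position -31). The stretch of CDC20, chr1:43358904-43358933 (plus strand, position -65), also shows a CCAAT box after the element. All positions count from the RefSeq start, and in INCENP, BUB1B, HMMR and PLK1 the GENCODE span of the gene begins upstream of the element.

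The members with a CHR element did not all lie on one side. Of the 26, 19 had a positive and 7 a negative log2 fold change, with a median of 0.24, and 5 had separate groups with lower and 3 with higher values. Of the 11 without it, 6 were positive and 5 negative, with a median of 0.02, and 5 had separate groups with lower values. With a CCAAT box, 15 of 26 were positive and 11 negative, and without it 10 of 11 were positive. Over all genes tested, 52.8% were positive, 17.1% had separate groups with lower values and 17.3% with higher values. All these counts come from the same samples, in which the sign of the members' median depended on shNC sample 1. No test of the elements was made.

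The chromosomal passenger complex held the gene that passed the adjusted threshold. INCENP is its scaffold, survivin (BIRC5) carries it to the centromere, and AURKB is the kinase that corrects faulty attachments of chromosomes to the spindle. All 3 genes were lower in the shPQBP1 samples with no overlap between the groups, and all 3 had an unadjusted p under 0.05. Over all genes tested, 17.1% lay lower with no overlap and 11.7% were lower with unadjusted p under 0.05. The GC content of all 3 transcripts was above the median of all genes, where 35.0% of genes had a positive log2 fold change.

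INCENP (ENSG00000149503, chromosome 11 of hg38 from 62123998 to 62153169) had 24.78, 22.52 and 23.41 FPKM in shNC and 16.87, 17.44 and 16.67 in shPQBP1. The highest shPQBP1 value was below the lowest shNC value. The mean fell from 23.57 ± 1.14 to 16.99 ± 0.40 FPKM (SD, n = 3 each), and the log2 fold change was -0.47 (SE 0.07, limma adjusted p = 0.0313). The call was lost when any of 5 samples was left out. The adjusted p of INCENP was 0.0293 without shNC sample 1, but 0.0754 and 0.112 without shNC samples 2 and 3, and 0.143, 0.121 and 0.147 without shPQBP1 samples 1, 2 and 3. It was 0.0149 after the GC content and length correction, and it ran from 0.0149 to 0.228 over all alternatives. The log2 fold change of INCENP stayed between -0.50 and -0.43 with 1 sample left out.

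AURKB had 26.04, 19.78 and 18.51 FPKM in shNC and 16.55, 16.03 and 15.60 in shPQBP1. The shNC values spread over more than the gap between the groups, with shNC sample 1 the highest. Its log2 fold change was -0.40 (SE 0.14, limma adjusted p = 0.158), and -0.25 without shNC sample 1. BIRC5 had 11.44, 9.60 and 9.74 FPKM against 8.05, 9.18 and 8.52, a log2 fold change of -0.25 (limma adjusted p = 0.209). CDCA8, which encodes borealin, the remaining subunit of this complex, is no member of the list but stood in a second list of kinetochore and centromere genes. It had 69.99, 60.58 and 60.06 FPKM in shNC and 48.83, 51.85 and 55.35 in shPQBP1, a log2 fold change of -0.29 (limma adjusted p = 0.139). INCENP was the 1 gene of these 4 that passed the adjusted threshold, which 1.18% of all genes passed in the lower direction.

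The 4 genes that end metaphase also lay lower. CDC20, UBE2C, PTTG1 and ESPL1 all had negative log2 fold changes, between -0.27 and -0.18, with no overlap between the groups (17.1% of all genes), and none had an adjusted p under 0.05. UBE2C, which starts ubiquitin chains for the anaphase-promoting complex, had 111.09, 101.65 and 98.00 FPKM in shNC and 87.99, 88.17 and 89.75 in shPQBP1. The shPQBP1 values lay within 2 FPKM of each other, below every control (log2 fold change -0.22, SE 0.07, limma adjusted p = 0.138). PTTG1, the inhibitor of separase, had 98.37, 68.34 and 68.17 FPKM against 60.46, 66.29 and 65.05. The difference in PTTG1 depended on shNC sample 1, without which its log2 fold change of -0.27 (limma adjusted p = 0.321) was -0.10. CDC20, the activator of the complex, had 142.16, 122.40 and 121.99 FPKM against 108.77, 116.81 and 113.90, or 128.8 ± 11.5 and 113.2 ± 4.07 (SD, n = 3 each). The log2 fold change of CDC20 of -0.18 was -0.11 without shNC sample 1 and -0.06 after the GC content and length correction. Separase itself (ESPL1) had 8.28 ± 0.465 and 7.17 ± 0.480 FPKM. After that correction the log2 fold changes of UBE2C, PTTG1 and ESPL1 were -0.196, -0.294 and -0.145. The transcripts of CDC20, UBE2C and ESPL1 lay above the median GC content of all genes, where 35.0% of genes had a positive log2 fold change. That of PTTG1 lay below it, where 70.6% did.

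Of the subunits of the anaphase-promoting complex, its coactivator FZR1 and its chain-extending enzyme UBE2S, 16 genes in all, 2 were higher and 2 lower with unadjusted p under 0.05 (25.0%, against 23.6% of all genes) and none passed the adjusted threshold. UBE2S was 1 of the lower genes, with 59.05, 47.84 and 48.13 FPKM in shNC and 31.55, 36.50 and 37.79 in shPQBP1. These groups did not overlap (log2 fold change -0.55, SE 0.12, limma adjusted p = 0.0659), and the adjusted p of UBE2S was 0.0229 after the GC content and length correction and 0.0673 to 0.208 with 1 sample left out. ANAPC2, the cullin subunit, had a log2 fold change of -0.35 (limma adjusted p = 0.154). ANAPC4 and ANAPC10 were the 2 higher genes, with log2 fold changes of 0.53 and 0.23, and that of ANAPC4 was 0.33 without shNC sample 1. The median over the 16 genes was -0.02.

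**Figure D2:**
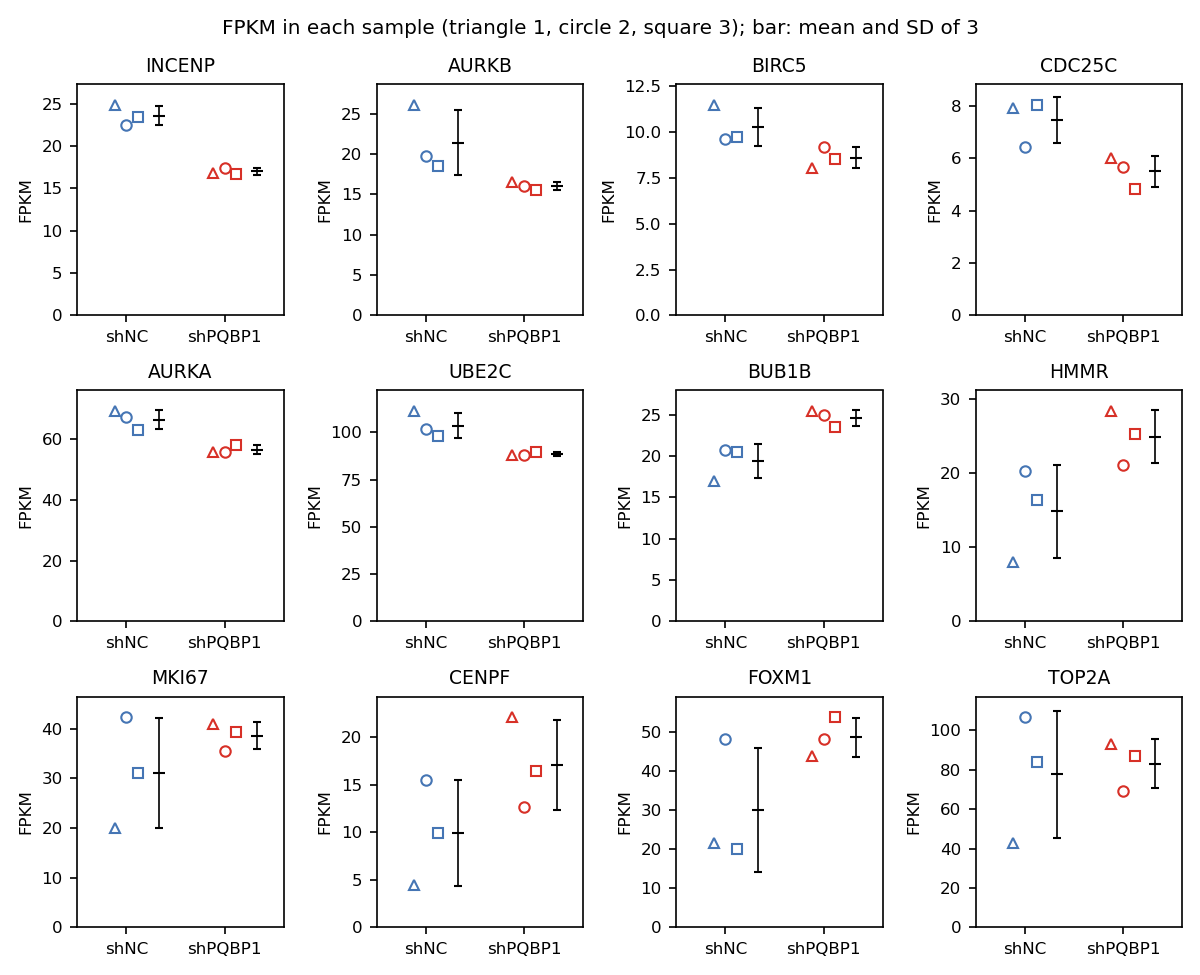
FPKM in each of the 6 samples for 12 members, with shNC samples in blue, shPQBP1 samples in red and, in black, the mean and SD of the 3 samples of a group. The vertical axes start at 0. INCENP, AURKB, BIRC5, CDC25C, AURKA and UBE2C have separate groups with the shPQBP1 samples lower, BUB1B and HMMR have separate groups with them higher, and MKI67, CENPF, FOXM1 and TOP2A have groups that overlap.

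Of the regulators of mitotic entry, 2 of 5 had an unadjusted p under 0.05, both lower, against 11.7% of all genes. CDC25C, the phosphatase that removes inhibitory phosphates from CDK1, had 7.91, 6.43 and 8.01 FPKM in shNC and 6.0, 5.66 and 4.83 in shPQBP1. The groups did not overlap, and the difference in the mean was -26.2% (log2 fold change -0.43, SE 0.13, limma adjusted p = 0.129). AURKA, the kinase of the centrosome and spindle poles, had 69.02, 67.09 and 62.90 FPKM against 55.75, 55.63 and 58.14. Its log2 fold change was -0.23 (SE 0.07, limma adjusted p = 0.123), and the adjusted p was 0.0473 after the GC content and length correction, the lowest of the alternatives, whose highest was 0.331. PLK1 had 22.91 ± 2.14 FPKM in shNC and 20.51 ± 1.41 in shPQBP1 (SD, n = 3 each), and its groups overlapped. CDC25B had 12.13, 18.95 and 18.91 FPKM against 17.36, 19.89 and 19.47, so that only shNC sample 1 lay below the rest. CDC25A, which acts earlier in the cycle as well, had 5.91 ± 1.83 and 6.52 ± 0.303 FPKM. The log2 fold changes of CDC25A and CDC25B (0.19 and 0.21) were -0.09 and -0.004 without shNC sample 1.

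With all samples and no correction, neither CDK1 nor any of the cyclins in the list passed either threshold. CDK1, the master kinase of mitosis, had 20.47, 35.20 and 31.70 FPKM in shNC and 36.53, 31.99 and 35.41 in shPQBP1, with shNC sample 1 far below the other 5. Its log2 fold change was 0.29 (SE 0.21, limma adjusted p = 0.412), and 0.05 without that sample. Cyclin B1 (CCNB1) had 117.63, 105.43 and 103.00 FPKM against 96.49, 97.77 and 100.43, with no overlap but with a log2 fold change of -0.14 (limma adjusted p = 0.283), or -0.085 without shNC sample 1. Cyclin B2 (CCNB2) had 30.46 ± 0.412 FPKM in shNC and 28.21 ± 0.551 in shPQBP1 (SD, n = 3 each), a difference in the mean of -7.39%. Cyclin A2 (CCNA2) had 54.79 ± 3.65 and 55.50 ± 2.56 FPKM. CCNF, the cyclin that gives its name to the F-box, had 9.43, 8.41 and 7.97 FPKM against 7.15, 8.15 and 8.0, with overlapping groups. After the GC content and length correction, CCNA2, CCNB1 and CCNB2 were lower with unadjusted p under 0.05, as were 15.4% of all genes. Their log2 fold changes were then -0.127, -0.277 and -0.145 (limma adjusted p = 0.165, 0.179 and 0.117). Those of CDK1 and CCNF were -0.012 and -0.059.

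In the spindle assembly checkpoint, BUB1B was the 1 member with separate groups. BUB1B (BubR1), which binds and blocks CDC20, had 17.01, 20.71 and 20.52 FPKM in shNC and 25.38, 24.98 and 23.47 in shPQBP1. The groups did not overlap, and the log2 fold change was 0.35 (SE 0.10, limma adjusted p = 0.122), 0.25 without shNC sample 1 and 0.22 after the GC content and length correction. TTK, the kinase that starts checkpoint signalling (MPS1), had 8.47, 16.27 and 12.43 FPKM against 19.83, 12.81 and 17.91, and the groups overlapped. BUB3 was close to level as deposited, with 37.73, 40.15 and 39.85 FPKM against 37.96, 37.43 and 38.79 (log2 fold change -0.044). BUB1 and MAD2L1 had log2 fold changes of 0.08 and 0.04, which were -0.05 and -0.06 without shNC sample 1. After the GC content and length correction, BUB3, MAD2L1 and BUB1 had log2 fold changes of -0.286, -0.251 and -0.083 (limma adjusted p = 0.18, 0.12 and 0.466). That of TTK was then 0.166.

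All 6 kinetochore and centromere members had positive log2 fold changes, from 0.09 (CENPA) to 0.91 (CENPF), and none had an unadjusted p under 0.05. Of all genes 52.8% were positive, and 70.6% of those below the median GC content. The median of the 6 genes was 0.46, and 0.215 without shNC sample 1. CENPF, a long protein of the outer kinetochore, had 4.43, 15.49 and 9.90 FPKM in shNC and 22.09, 12.63 and 16.50 in shPQBP1. The shNC values alone spanned 4.43 to 15.49 FPKM, and the groups overlapped (SE 0.46, limma adjusted p = 0.278). The log2 fold change of CENPF was 0.42 without shNC sample 1. CENPE, the kinesin that carries chromosomes to the spindle equator, had 1.14, 4.38 and 2.49 FPKM against 6.12, 3.03 and 4.36, and its log2 fold change of 0.86 was 0.38 without shNC sample 1. Among the members were 3 genes of the NDC80 complex, which grips microtubules: NDC80 itself (log2 fold change 0.36), NUF2 (0.55) and SPC25 (0.17). Without shNC sample 1 the values of NDC80 and NUF2 were 0.17 and 0.24. SPC25 had separate groups, 18.16 ± 0.695 FPKM in shNC and 20.45 ± 0.777 in shPQBP1 (SD, n = 3 each, limma adjusted p = 0.221), but a log2 fold change of -0.04 after the GC content and length correction. CENPA, the histone variant that marks centromeres, had 6.87 ± 0.323 and 7.31 ± 0.546 FPKM.

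Among 33 further kinetochore and centromere genes, 4 were higher and 3 lower with unadjusted p under 0.05 (21.2%, against 23.6% of all genes), and 1 passed the adjusted threshold, which 2.91% of all genes passed. This was ZW10, which brings dynein and the checkpoint proteins to unattached kinetochores. It rose from 9.15, 9.76 and 9.60 FPKM in shNC to 16.37, 15.93 and 15.98 in shPQBP1, a log2 fold change of 0.75 (SE 0.07, limma adjusted p = 0.00902) with no overlap. The adjusted p of ZW10 was 0.00979 without shNC sample 1, 0.0384 and 0.0491 without shNC samples 2 and 3, and 0.0629, 0.0644 and 0.0698 without shPQBP1 samples 1, 2 and 3. CENPN, a subunit that binds CENPA nucleosomes, had 12.20, 12.39 and 13.13 FPKM against 14.33, 15.42 and 14.92. MAD2L2 had a log2 fold change of -0.51 (limma adjusted p = 0.107). The median over the 33 genes was 0.17.

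Of the chromosome condensation genes, none had an unadjusted p under 0.05. The core condensin ATPases SMC2 and SMC4 had log2 fold changes of 0.70 and 0.57, and the subunits NCAPG, NCAPD2 and NCAPH of 0.50, -0.11 and -0.03. Without shNC sample 1 those of SMC2, SMC4, NCAPG and NCAPD2 were 0.31, 0.24, 0.24 and -0.05. SMC2 had 6.17, 14.65 and 13.29 FPKM in shNC and 21.16, 14.09 and 17.33 in shPQBP1, so that the groups overlapped. NCAPD2, a subunit of condensin I together with NCAPG and NCAPH, had 70.46, 62.58 and 62.53 FPKM against 59.67, 61.47 and 60.12. TOP2A, topoisomerase II alpha, which untangles sister chromatids, had 42.81, 106.47 and 83.87 FPKM against 93.26, 69.01 and 87.00. Its shNC samples included both the lowest and the highest value of the 6, and its log2 fold change of 0.18 (SE 0.34, limma adjusted p = 0.751) was -0.20 without shNC sample 1. In cohesin and its regulators, which hold sister chromatids together, 15 of 16 genes were tested, with 3 higher and 1 lower with unadjusted p under 0.05 (26.7%, against 23.6% of all genes) and none at the adjusted threshold. MAU2, of the cohesin loader, had a log2 fold change of 0.45, and ESCO1, which acetylates cohesin, of 0.93, or 0.59 without shNC sample 1. CDCA5 (sororin), which protects cohesin from release, had 30.15, 27.38 and 25.39 FPKM against 23.13, 21.14 and 24.28. The median of these 15 genes was 0.45, and it was 0.13 without shNC sample 1.

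The spindle assembly factors differed among themselves. TPX2, which activates AURKA on microtubules and was the most abundant member, had 183.56, 177.99 and 179.32 FPKM in shNC and 170.07, 169.55 and 176.03 in shPQBP1. The groups did not overlap, with a difference in the mean of -4.66% (log2 fold change -0.07, limma adjusted p = 0.462), and under quantile normalization its log2 fold change was 0.01. HMMR, the hyaluronan receptor that also binds spindle poles, had 8.01, 20.27 and 16.33 FPKM against 28.29, 21.14 and 25.28. Its groups lay apart by less than 1 FPKM between the nearest samples, and its log2 fold change of 0.83 (SE 0.34, limma adjusted p = 0.211) was 0.44 without shNC sample 1. CKAP2 had 22.38, 52.71 and 22.74 FPKM against 56.43, 36.45 and 46.76. DLGAP5 (log2 fold change 0.42) and NUSAP1 (0.19) overlapped as well, and without shNC sample 1 their log2 fold changes were 0.11 and -0.21. Of 12 mitotic kinesins outside the members, 1 was higher and 2 were lower with unadjusted p under 0.05 (25.0%, against 23.6% of all genes). At the adjusted threshold 1 of the 12 was lower, against 1.18% of all genes. KIF2C (MCAK), the microtubule depolymerase that AURKB regulates, fell from 68.45, 61.52 and 62.95 FPKM to 45.28, 48.33 and 47.98, a log2 fold change of -0.45 (SE 0.07, limma adjusted p = 0.0345). The adjusted p of KIF2C was 0.0328 without shNC sample 1, 0.0812 and 0.116 without shNC samples 2 and 3, and 0.153, 0.126 and 0.147 without shPQBP1 samples 1, 2 and 3. KIF18B had 16.40, 13.61 and 13.93 FPKM against 10.75, 11.85 and 10.84 (limma adjusted p = 0.0983). KIF14 had a log2 fold change of 0.94 with groups that overlapped, and of 0.55 without shNC sample 1.

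None of the 4 cytokinesis genes had an unadjusted p under 0.05. ANLN (anillin), which organises the contractile ring, had 35.30, 70.10 and 60.74 FPKM in shNC and 78.02, 62.61 and 73.38 in shPQBP1. ECT2, the exchange factor that activates RhoA at the cleavage site, had a log2 fold change of 0.34, and 0.03 without shNC sample 1. RACGAP1, the subunit of centralspindlin that binds ECT2, had 48.71, 46.05 and 59.61 FPKM against 46.51, 44.69 and 47.71. PRC1, which bundles the microtubules of the central spindle, had 43.12, 22.05 and 38.92 FPKM against 37.28, 37.30 and 40.29, so that here shNC sample 2 lay below the other 5.

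MKI67 encodes Ki-67, an antigen widely stained as an index of proliferation. It had 20.08, 42.29 and 31.15 FPKM in shNC and 41.00, 35.58 and 39.34 in shPQBP1. The shPQBP1 values lay inside the range of the shNC values, and the log2 fold change of 0.37 (SE 0.26, limma adjusted p = 0.40) was 0.09 without shNC sample 1. FOXM1, the transcription factor of the G2/M programme, had 21.49, 48.12 and 20.05 FPKM against 43.72, 48.23 and 53.60. shNC sample 2 lay among the shPQBP1 samples and the other shNC samples well below them, and the log2 fold change was 0.81 (SE 0.34, limma adjusted p = 0.212). Without shNC sample 2 it was 1.22 (limma adjusted p = 0.0274), and this adjusted p was the lowest of the alternatives, whose highest was 0.417. After the GC content and length correction the log2 fold change of FOXM1 was 0.885. Among 17 tested genes of the MuvB complex and the E2F and retinoblastoma families, 3 were higher and 1 was lower with unadjusted p under 0.05 (23.5%, against 23.6% of all genes) and none at the adjusted threshold. E2F7, a repressor, had a log2 fold change of 0.31, RBL2 (p130), a part of the DREAM complex that silences these genes in resting cells, of 0.45, and E2F5 of -0.62 (limma adjusted p = 0.0973).

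**Figure D3:**
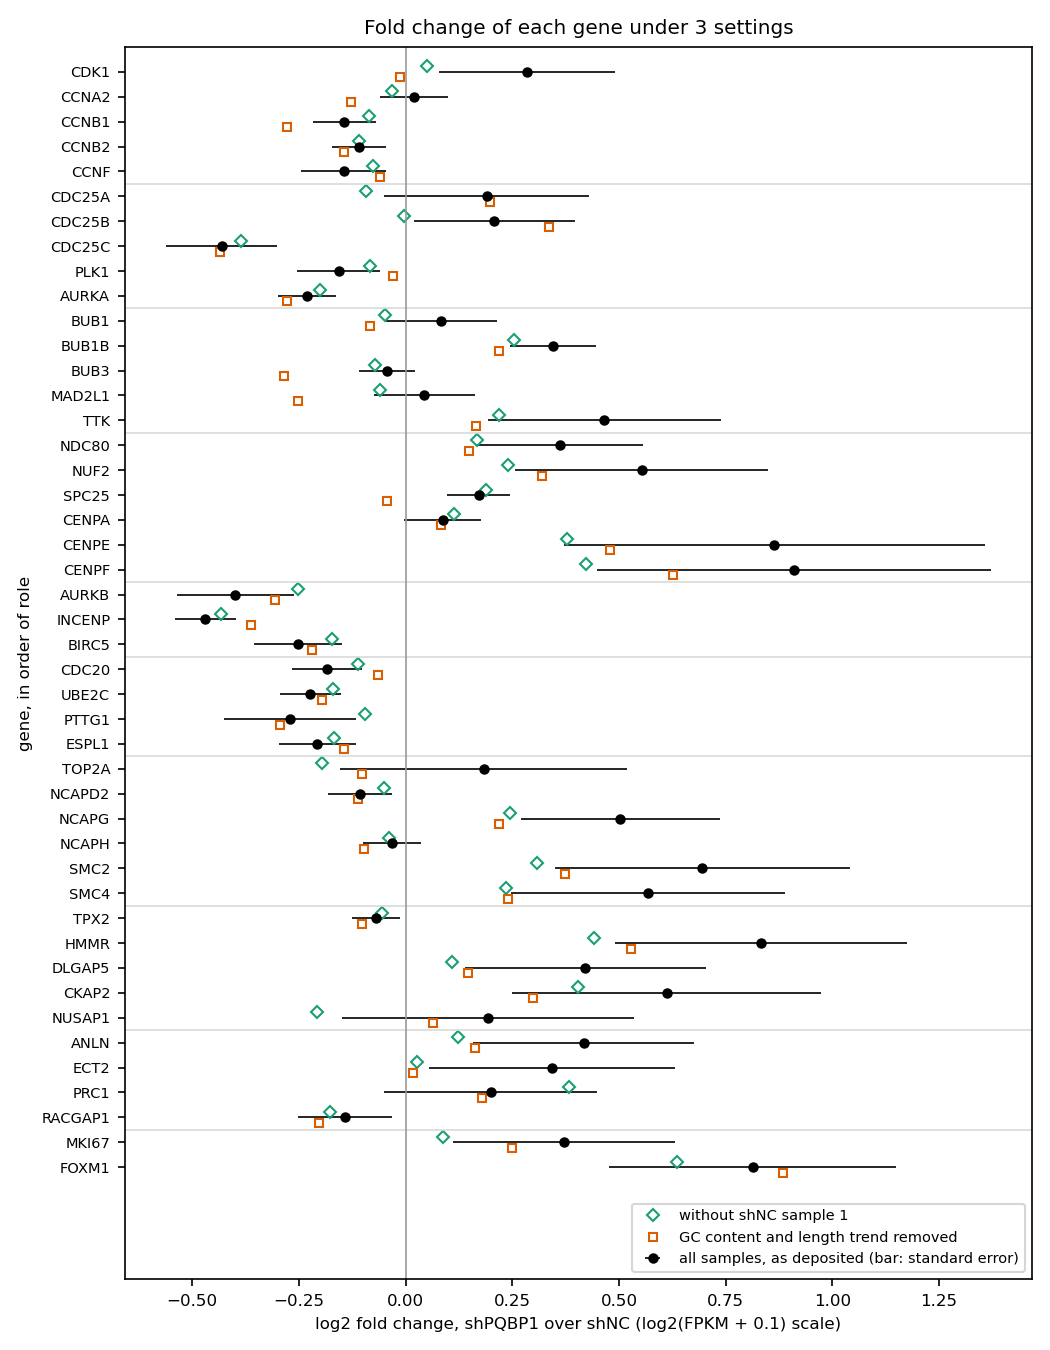
Log2 fold change of each gene, shPQBP1 over shNC, on the log2(FPKM + 0.1) scale, with all samples (black, bar 1 standard error), without shNC sample 1 (green diamonds) and after a trend on GC content and transcript length had been taken out of each sample (orange squares). Of the genes far to the right, CENPE, CENPF, SMC2 and HMMR move towards 0 under both settings. FOXM1 (0.81) moves to 0.64 without shNC sample 1 but to 0.885 after the GC content and length correction. The chromosomal passenger genes stay left of 0.

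The other phases of the cycle were read from lists of the same kind. Of 37 G1/S and DNA replication genes, all tested, 4 were higher and 5 lower with unadjusted p under 0.05 (24.3%, against 23.6% of all genes) and none passed the adjusted threshold, with a median log2 fold change of -0.02. FEN1, the flap endonuclease of lagging-strand synthesis, had 116.60, 94.84 and 102.50 FPKM in shNC and 79.23, 86.74 and 83.15 in shPQBP1 (limma adjusted p = 0.118). The replication genes GINS2 and MCM6 had log2 fold changes of 0.27 and 0.23. Of 10 tested G1 cyclins and kinases, 1 was higher and 1 lower with unadjusted p under 0.05 (20.0%, against 23.6% of all genes). The lower gene, cyclin E1 (CCNE1), which drives entry into S phase with CDK2, passed the adjusted threshold. Of all genes, 1.18% passed it in the lower direction. CCNE1 fell from 3.46, 3.12 and 3.65 FPKM to 1.99, 2.08 and 2.40, a log2 fold change of -0.64 (SE 0.12, limma adjusted p = 0.0482). The call on CCNE1 was lost without any 1 of the samples: the adjusted p was 0.0665, 0.0886 and 0.144 without shNC samples 1, 2 and 3, and 0.178, 0.156 and 0.12 without shPQBP1 samples 1, 2 and 3. CDK6 had 3.16, 6.90 and 6.27 FPKM against 9.63, 7.62 and 8.59.

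Of 11 tested inhibitors and brakes of the cycle, 1 was higher and 1 lower with unadjusted p under 0.05 (18.2%, against 23.6% of all genes). CDKN1A (p21), the inhibitor of cyclin-dependent kinases that p53 induces, had 101.15, 87.08 and 87.01 FPKM in shNC and 18.76, 79.36 and 16.95 in shPQBP1. The groups did not overlap, but shPQBP1 sample 2 was close to the controls and far above the other shPQBP1 samples (log2 fold change -1.64, SE 0.58, limma adjusted p = 0.166). Without shPQBP1 sample 2 the log2 fold change of CDKN1A was -2.35 (limma adjusted p = 0.00928), and without each of the other samples the adjusted p lay between 0.206 and 0.383. CHEK1, the checkpoint kinase that restrains CDC25 phosphatases, had 3.87, 4.31 and 4.20 FPKM against 5.13, 4.79 and 4.66 (log2 fold change 0.23, limma adjusted p = 0.187). Of 96 tested genes outside the members that the deposited table annotates to the KEGG pathway Cell cycle, 9 were higher and 10 lower with unadjusted p under 0.05 (19.8%, against 23.6% of all genes). CCNE1 was the gene of this list at the adjusted threshold, which 2.91% of all genes passed. The 14-3-3 genes YWHAH and YWHAE, whose proteins hold phosphorylated CDC25 in the cytoplasm, went opposite ways in this list, with log2 fold changes of 0.31 and -0.46 (adjusted p = 0.108 and 0.078 from limma).

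The spread between samples followed features of the transcripts. shNC sample 1 was the lowest of the 6 samples in 23 members (51.1%) and in 32.1% of all genes. Its value was below 0.7 of the mean of shNC samples 2 and 3 in 20 members (44.4%), against 17.2% of all genes, with the lowest ratios in CENPE (0.332) and CENPF (0.349). These 20 genes had a median GC content of 38.8% and a median transcript length of 3729 bases, and all 20 had a positive log2 fold change, with a median of 0.44, or 0.19 without shNC sample 1. In 10 members the value in shNC sample 1 was more than 1.1 times that mean, among them PTTG1 (1.44), PRC1 (1.41) and AURKB (1.36). The median GC content of the 10 was 51.4%. That of PTTG1 (45.7%) and PRC1 (46.8%) was below the median of all genes (47.5%), and that of AURKB (55.7%) above it. The median coefficient of variation of the members was 18.8% in shNC and 6.87% in shPQBP1, against 12.8% and 8.21% over all genes. It was 4.93% between shNC samples 2 and 3.

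The members had a median GC content of 43.1% in their canonical transcripts, against 47.5% over the tested genes with a transcript. Taken gene by gene over the same 6 samples, so without independent replicates, the log2 fold change followed GC content with Spearman's rho = -0.644 over the 45 members and -0.459 over 11385 genes. Without shNC sample 1 the values were -0.511 and -0.236. Of the 32 members below the GC median of all genes, 23 had a positive log2 fold change (71.9%, against 70.6% of all genes below it). Of the 13 members at or above it, 4 had a positive one (30.8%, against 35.0% of all genes there). After the GC content and length correction, rho was -0.342 over the members and -0.006 over all genes. What part GC content or shNC sample 1 has in any single difference was not tested.

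**Figure D4:**
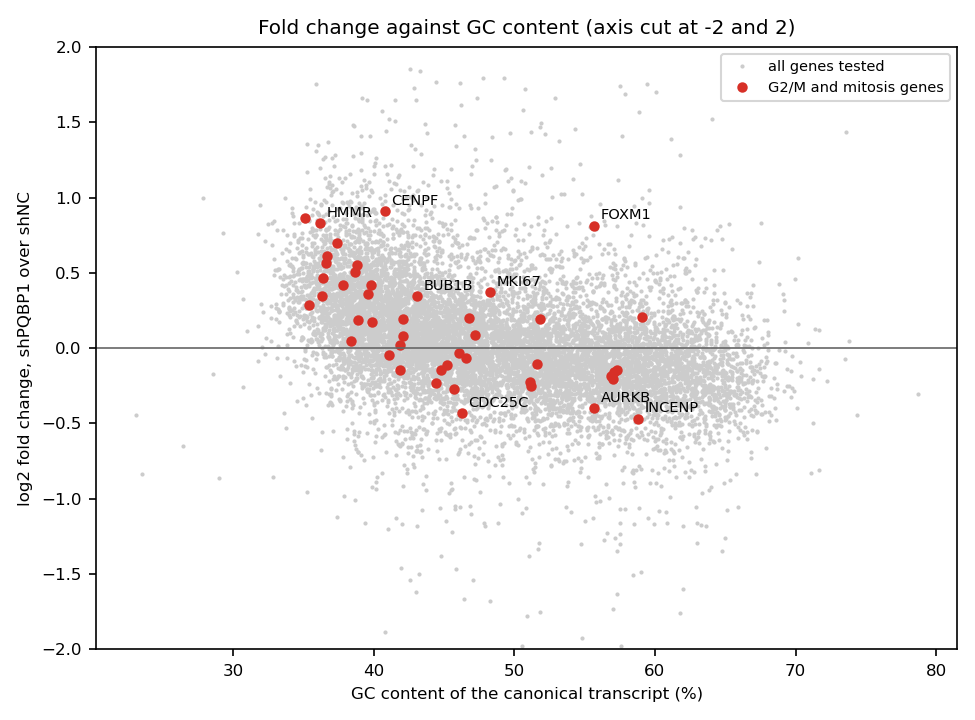
Log2 fold change, shPQBP1 over shNC, against the GC content of the canonical transcript in percent, for all tested genes (grey) and the 45 members (red). The log2 fold change falls with GC content in both, with Spearman's rho = -0.644 over the members and -0.459 over all genes. CENPF and HMMR lie high at low GC content, INCENP and AURKB low at high GC content, and FOXM1 (0.81) above the other members of high GC content.

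Some values may hold reads of neighbouring genes, since whether the counting used strand is not given in the sources used here. The span of 9 members overlaps that of 13 other tested genes, 8 of them on the opposite strand. Among the 13 overlaps are those of CCNA2 with EXOSC9, CDC25C with FAM53C, NCAPD2 with MRPL51, SMC4 with IFT80 and TRIM59, NUSAP1 with OIP5, and FOXM1 with ITFG2 and RHNO1. INCENP, BUB1B and AURKB are not among the overlapped members.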

How the data were processed

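Gene expression was measured in 3 shNC and 3 shPQBP1 samples of HEY cells. According to the submitters' processing notes, the authors used HISAT2 2.2.0, SAMtools 1.9, StringTie 1.3.0, edgeR and the genome build hg38. The FPKM values were used as deposited by the authors, in a table of genes by samples with 2 decimals. The annotation release is not given in the sources used here. Columns with the authors' fold changes, p-values and calls were not used. No steps of whole reads were found in the low values (strength 0.192 to 0.217 over 2365 to 2644 short genes of 1 exon), so no counting intervals are given.

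Testing was limited to genes averaging 1 FPKM or more over the 6 samples, and was done on log2(FPKM + 0.1), which understates changes of low genes, with limma (version 3.58.1, R version 4.3.3), with a mean-variance trend, two-sided, Benjamini-Hochberg adjusted. The steps were run on simulated data, in which genes varied independently and a straight-line GC content trend was added to the shPQBP1 samples. The simulation did not copy the GC content trend of shNC sample 1. Positions, GC content and length came from GENCODE release 44 canonical transcripts, which may differ from the authors' annotation, and the trend on GC content and log length was removed with natural splines (5 degrees of freedom each). The members and lists were chosen with earlier results of these data known. Values per sample are given for members at an unadjusted p under 0.05, those with the largest rise or fall of a role, and MKI67, CDK1, CCNB1, FOXM1 and TOP2A. From other lists up to 2 genes per direction with the smallest p under 0.05 are named, some with their log2 fold change alone, and 1 is not reported here.

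Alternatives were median-of-ratios scaling, quantile normalization, other filters and pseudocounts, no trend, the replicate number as a block, the GC content and length correction with and without the block, and each sample left out. The limma p-values set the difference between the groups against the spread between samples within a group. Whether samples of a group came from separately made lines is not given in the sources used here. A spread between such lines therefore cannot be read from these p-values.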

Additional observations from a re-analysis of the deposited data

How the results depend on the processing

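No call on a member held in every setting. Over all genes, 332 passed the adjusted threshold, against 1006 after the GC content and length correction, 772 with that correction and without shNC replicate 1 (added after seeing the data), 190 with every gene above 0 tested, 211 with genes of a mean FPKM of at least 10, and 30 to 464 with 1 sample left out. The 173 genes with a fold change over 2 at an unadjusted p under 0.05 were 662 with every gene above 0, 40 at a mean FPKM of at least 10, 83 with a pseudocount of 1 and 144 to 312 with 1 sample left out. Of the members, 2 passed the adjusted threshold after the correction, 0 with every gene above 0 (INCENP, adjusted p = 0.0522 from limma), and 0 to 1 with 1 sample left out. At an unadjusted p under 0.05 there were 15 after the correction (27.8% of all genes) and 13 with the correction and without shNC replicate 1 (26.9%). With 1 sample left out there were 4 to 19, and the share of all genes is given above only without shNC replicate 1. The members' median log2 fold change of 0.17 was -0.03 after the correction, -0.063 with it and without shNC replicate 1, and -0.038 to 0.162 with 1 sample left out.

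The deviations of same-numbered samples correlated at -0.186, -0.138 and -0.011, and no sample correlated best with the sample of its own number in the other group. With 3 samples per group, these correlations cannot show whether same-numbered samples shared a batch. With the replicate number as a block, 0 genes passed the adjusted threshold in limma (1840 at an unadjusted p under 0.05), with 0 members at the adjusted and 5 at the unadjusted threshold, and PQBP1 kept its log2 fold change of -2.039 at an adjusted p of 0.0686. With the block and the GC content and length correction, 19 genes and 0 members passed, and the members' median was -0.03. The cause of these differences was not tested.

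The median of cohesin and its regulators was 0.007 with the correction and without shNC replicate 1, and 0.129 to 0.595 with 1 sample left out. That of the further kinetochore genes was -0.03 at a mean FPKM of at least 10. That of the mitotic kinesins was 0.128 after the correction with or without the block, 0.082 with the correction and without shNC replicate 1, -0.026 at a mean FPKM of at least 10, and 0.142 to 0.299 with 1 sample left out.

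The sign of some members turned. After the correction, with or without the block, the log2 fold changes were -0.012 for CDK1, -0.127 for CCNA2, -0.083 for BUB1, -0.251 for MAD2L1, -0.043 for SPC25 and -0.102 for TOP2A. With the correction and without shNC replicate 1 they were -0.063 for CDK1, -0.102 for CCNA2, -0.12 for CDC25A, -0.13 for BUB1, -0.171 for MAD2L1, -0.3 for TOP2A, -0.006 for DLGAP5, -0.268 for NUSAP1 and -0.102 for ECT2. With 1 sample left out they ran from -0.032 to 0.063 for CCNA2, -0.093 to 0.357 for CDC25A, -0.004 to 0.315 for CDC25B, -0.049 to 0.162 for BUB1, -0.061 to 0.112 for MAD2L1, -0.197 to 0.459 for TOP2A, -0.208 to 0.445 for NUSAP1 and -0.098 to 0.384 for PRC1. TPX2 was at 0.007 under quantile normalization. Median-of-ratios scaling, both other pseudocounts and the fit without a trend kept the sign and the call of all 45 members. The depth is unknown, so its limit could not be set.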
